A study of Mus musculus with 14 samples.

Results

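Heat shock proteins and chaperonins were followed through single blood progenitor cells of 5 mice. The genes were chosen by name alone: a symbol beginning with HSPA, HSPB, HSPD, HSPE, HSPH or HSP90, with DNAJA, DNAJB or DNAJC and a number, or with CCT and a digit from 2 to 8. This gave 83 of the 22842 genes that both deposited count tables list, and 10 of the 83 are pseudogenes. Another 9 matching symbols, among them HSPA12A and HSPB7, were in the second table only and were left out. The 83 genes comprise 10 of the HSP70 family, 3 of the HSP110 family, 3 of the HSP90 family and HSPD1 with its partner HSPE1. They also comprise 4 small heat shock proteins and 8 CCT, 4 DNAJA, 11 DNAJB and 25 DNAJC genes. The remaining names are HSPBP1 (an exchange factor of HSP70), HSPB11 and HSPBAP1, whose symbols match but whose proteins belong to none of these families.

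Chaperones hold newly made or damaged proteins until they fold. HSP70 proteins bind short stretches of unfolded chain, J-domain proteins (the DNAJ families) hand them clients and switch on their ATPase, and HSP110 proteins and HSPBP1 help them exchange nucleotide. HSP90 finishes the folding of signalling proteins, HSPD1 and HSPE1 form the folding chamber of mitochondria, and the CCT ring folds actin and tubulin in the cytosol. HSPA1A and HSPA1B are the strongly heat-inducible HSP70 genes, switched on by heat shock factor 1 (HSF1), while HSPA8 is the HSP70 form that cells keep at a steady level.

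The study traced endogenous adult blood stem cells with an inducible reporter, named in the labels only as Tom, and sequenced single cells that were Tom+ and negative for lineage markers (Lin-). All groups share this sort, and the labels state neither the genotype, the age of the animals nor the event from which days were counted. The day 3 group is mouse m4539 (2 plates), the day 10 group is mouse m4533 (3 plates), and the day 17 group is mice m4528 (4 plates), m605 and m606 (2 plates each) plus 1 plate that mixes cells of m605 and m606. Libraries came from a 3′-end form of Smart-seq2, and mice m605 and m606 stand in a count table of their own. Days 3 and 10 have 1 mouse each and therefore no replicate error.

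After filtering, 1010 cells remained, 93 to 288 per mouse or mixed plate, with 15121279 to 64257177 counts in all and median cells of 118001 to 286917 counts. Only 96 barcode sequences occur and each of them is in more than 1 plate, so a barcode alone does not name a cell. Cells were assigned to a lineage by marker genes that are not chaperones (more than 10 counts of at least 3 of 8 markers and a lead of 2 markers), which gave 351 stem-gated, 94 megakaryocyte-gated, 100 erythroid-gated, 66 neutrophil-gated, 93 monocyte-gated and 13 basophil-gated cells and left 293 ungated. The sums of the 8 stem markers were 3462 to 7017 CPM (counts scaled to a total of 1000000) in stem-gated cells of the 5 mice and 53.3 to 705 CPM in their other gated sums. Markers of other cell types were read as sums of CPM. CD79B gave nearly all of a B-cell sum of 12.7 to 237.5 CPM outside the erythroid gate while MS4A1 stayed at or below 0.16 CPM, and EMCN gave most of a stromal and endothelial sum of 37.5 to 294 CPM in stem-gated cells, with 165.2 CPM over all cells of m605. The sum of the 3 of 8 T and NK cell markers measured was 20.9 to 125 CPM in stem-gated cells and at most 59.3 CPM in other gates, and that of macrophage markers at most 54.5 CPM in any gate. No mouse had 10 basophil-gated cells, so the gate comparisons below leave that gate out. In sums over cells, fewer cells of a kind and less RNA per cell cannot be told apart. The part of cells of other types in the results was not tested.

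HSF1 acts on heat-inducible chaperone genes through the heat shock element, a run of GAA units that alternate in direction. It is shown here for HSPE1 because HSPD1 and HSPE1, which lie head to head on chromosome 1, share it. In the annotation of GRCm38, HSPD1 spans chr1:55077835-55088243 on the minus strand and HSPE1 chr1:55088132-55091307 on the plus strand, and their ends overlap by 112 bases. The printed stretch of 30 bases is chr1:55088053-55088082 on the plus strand (RefSeq, GRCm38.p6), and capitals mark the 18-base element, which lies 73 to 56 bases before that start of HSPE1 and within the first exon of HSPD1.
HSPE1: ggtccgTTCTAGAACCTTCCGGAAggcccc
The motif GAANNTTCNNGAA (either strand) was found in the 250 bases before the RefSeq start in 3 of the 61 members with such a window, HSPD1, HSPE1 and DNAJB6, and in 56 of all 12466 genes with one, or 0.449%. A match is a description of letters and not a shown binding site.

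HSPA1A and HSPA1B are near-identical copies on chromosome 17, at chr17:34969190-34972156 and chr17:34956436-34959238 on the minus strand, with 9951 bases between them. Of the 250 bases before their starts, 247 are identical, and neither window holds the 13-base motif in this form. The stretch from 240 to 141 bases before each start is printed to show how alike the copies are, with the differing bases in capitals (chr17:34972297-34972396 and chr17:34959379-34959478, minus strand, RefSeq, GRCm38.p6).
HSPA1A: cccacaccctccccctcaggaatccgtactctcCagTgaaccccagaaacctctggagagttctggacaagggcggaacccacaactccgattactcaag
HSPA1B: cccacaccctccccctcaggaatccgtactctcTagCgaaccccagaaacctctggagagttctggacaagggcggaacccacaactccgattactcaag
The transcripts differ more at their ends. Of all 50-base windows of the HSPA1A transcript, 58.8% also occur in HSPA1B, but none of those in its last 500 bases do, which is the part a 3′-end library reads. HSPA1A held 26651 counts in all kept cells and HSPA1B 1609. The assignment of reads that match both copies was not given in the sources used here. Both values carry that uncertainty.

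HSPA1A was held by cells of day 17 only, and nearly always by cells outside the stem gate. A cell was said to hold it at more than 10 counts. None of the 190 cells of day 3 did so, which allows a share of up to 1.58%. None of the 107 cells of day 10 did either (up to 2.80%). Such limits for 0 cells, here and below, are 3 divided by the number of cells. The exact 95% intervals reach higher, to 1.92% for day 3 and 3.39% for day 10. At most 1 count was seen in any cell of these days. At day 17 the share was 11.5% in mouse m4528, 44.1% in m605 and 38.6% in m606, a mean of 31.4% ± 17.5 (SD, n = 3 mice), and 46.2% in the mixed plate. The exact binomial 95% intervals, which cover counting error only, ran from 8.02% to 15.7%, 35.8% to 52.6% and 31.6% to 46.0% in the 3 mice. The day 17 mice lay above both earlier mice. The difference of 31.4 percentage points had p = 0.2 in a two-sided exact permutation test over mice, in which 10 splits allow no p below 0.1. The size of this difference depended on the threshold, with 60.5 percentage points at 1 or more counts and 11.9 above 100 counts. Mouse m4528 stood well below the other day 17 mice and is also the one from the first count table, so mouse and table cannot be told apart. The same held plate by plate: its 4 plates had shares of 7.32% to 18.8%, against 37.9% to 46.3% for the 5 plates of the second table.

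Among the 4 lineages with at least 9 cells in each day 17 mouse, monocyte-gated cells held HSPA1A most often and stem-gated cells hardly ever. Of the stem-gated cells, 0 of 76 in m4528 (which allows up to 3.95%), 0 of 14 in m605 (up to 21.4%) and 0 of 30 in m606 (up to 10%) held it. The single stem-gated holder among all 351 such cells was in the mixed plate. Monocyte-gated shares were 45.2%, 70% and 70.8% in m4528, m605 and m606 (62.0% ± 14.6, SD, n = 3 mice). Neutrophil-gated shares were 20%, 45.5% and 58.3% (41.3% ± 19.5), erythroid-gated 21.4%, 52.9% and 44.1% (39.5% ± 16.3), and megakaryocyte-gated 8.33%, 55.6% and 46.7% (36.9% ± 25.1). In each of these lineages m4528 had the lowest share, and the ranges of the 4 lineages overlapped between mice. Within each of the 3 mice the monocyte gate had the highest share of the 4, and in the mixed plate it was at 86.7% against 60% or less, while the order of the other 3 lineages differed between mice. The difference between lineages in this share was not tested. Ungated cells held it in 7.48%, 38.9% and 29.6%, and of the basophil-gated cells 0 of 6 in m4528, 0 of 1 in m605, 4 of 5 in m606 and 0 of 1 in the mixed plate did.

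**Figure D1:**
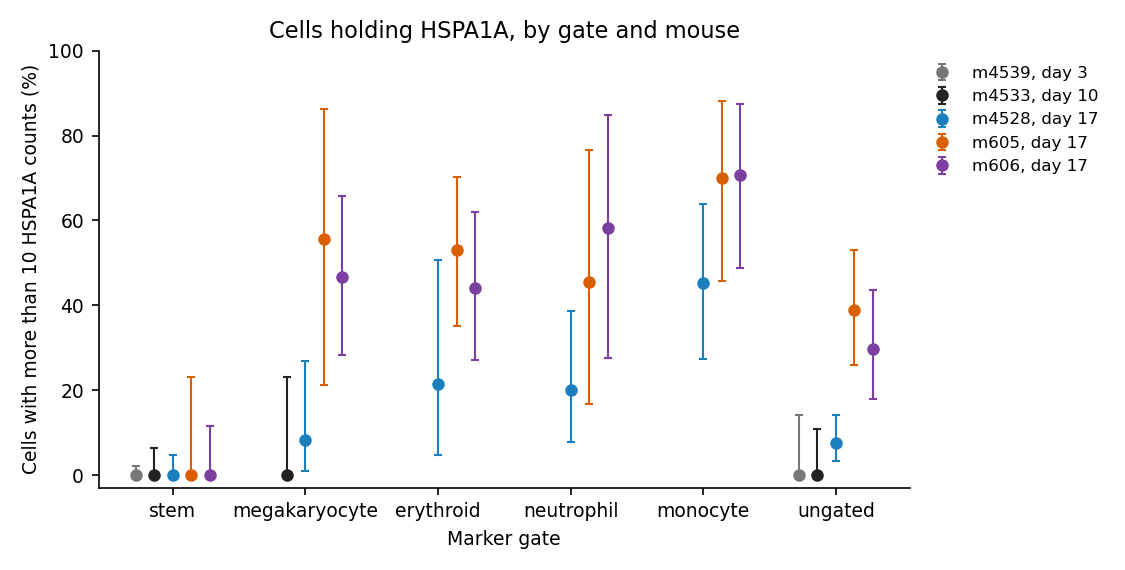
Share of cells with more than 10 HSPA1A counts (vertical axis, percent) by marker gate (horizontal axis), 1 point per mouse with its exact 95% binomial interval, which covers counting error only; gates with under 5 cells in a mouse and the basophil gate are not drawn. All stem-gated points sit at 0, as do the day 3 and day 10 points, while the day 17 points of the other gates drawn run from 7.48% to 70.8%.

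Depth differed between these cells and is given beside the shares. Stem-gated cells had a median of 91806, 48039 and 59936 counts in m4528, m605 and m606, against 323644, 111581 and 181183 in monocyte-gated cells. At full depth, at least 1 HSPA1A count was seen in 5.26%, 57.1% and 40% of stem-gated cells and in 54.8%, 90% and 91.7% of monocyte-gated cells of the 3 mice. With every cell thinned to 10000 counts these shares were 0%, 7.14% and 10% in stem-gated cells and 41.9%, 70% and 66.7% in monocyte-gated cells. The monocyte-gated share was the higher one in each mouse at equal depth too. All stem-gated cells of these mice together held 4, 10 and 16 HSPA1A counts. Days 3 and 10 together held 16 megakaryocyte-gated, 3 erythroid-gated and 1 neutrophil-gated cell, and m4533 had 3 monocyte-gated cells, so few cells of these lineages could be compared between days. Outside the stem gate, 0 of 79 cells of days 3 and 10 held it (which allows up to 3.797%), 56 of them ungated and 14 of them megakaryocyte-gated cells of m4533. At day 17 the cells outside the stem gate held it in 33 of 212 in the first table (15.6%) and 178 of 368 in the second (48.4%). The mix of lineages within these cells also differed between days, and its part was not tested.

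The median holder stood well above the threshold of 10 counts. The 212 holders had a median of 84 counts and 463.5 CPM (14.7 to 3246 CPM), and the highest cell reached 783 counts. Of all HSPA1A counts 98.5% lay in holders, which follows in part from how holders were chosen. Another 214 cells had 1 to 10 counts, but few lay near the threshold, with 4 cells at 8 to 10 counts and 5 at 11 to 13. HSPA1B passed 10 counts in 32 cells, of which 25 held HSPA1A. The related HSPA1L, which starts 546 bases from HSPA1A and runs in the opposite direction, was at 0.21 to 1.75 CPM in the 5 mice.

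Summed over the cells of a gate, HSPA1A stood higher in each of 4 lineages than in stem-gated cells of the same mice. Stem-gated sums of day 17 were at 0.53, 14.4 and 8.59 CPM in m4528, m605 and m606. Erythroid-gated sums were at 82.7, 94.1 and 104 CPM, neutrophil-gated sums at 65.3, 350 and 281 CPM, and monocyte-gated sums at 265, 785 and 634 CPM. All 3 mice were higher in each of these lineages, with no overlap with the stem-gated sums. Megakaryocyte-gated sums were at 76.1 CPM in m4528 and 370 CPM in m606, while m4533 of day 10 had 0 counts in both gates. In edgeR's quasi-likelihood test with mouse as a block, HSPA1A rose by 4.45 ± 0.72 (log2 fold change ± SE) in erythroid-gated, 5.31 ± 0.72 in neutrophil-gated, 6.84 ± 0.77 in monocyte-gated and 5.38 ± 0.77 in megakaryocyte-gated cells, with Benjamini-Hochberg adjusted p of 0.00226, 0.00154, 0.000465 and 0.00452. HSPA1B passed the test in none of them. Its monocyte-gated sums were 1.93, 125 and 18.1 CPM.

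The rest of the family was compared between the same gates. Counts were summed per mouse and gate for sums of at least 10 cells and fitted across 14063 genes, of which 73 were members. The erythroid, neutrophil and monocyte gates were compared in mice m4528, m605 and m606, and the megakaryocyte gate in m4533, m4528 and m606. All gates entered the same fit with mouse as a block and shared the estimate of the spread. A mouse could therefore bear on a gate in which it had no sum. All folds below are log2 differences of a gate from the stem gate, with SE, and a call means an adjusted p below 0.05 in edgeR's quasi-likelihood test.

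In erythroid-gated cells members of most chaperone families rose: 25 of the 73 tested members were higher and 1 was lower, where 8.94% of all tested genes were higher and 8.68% lower. The members' median fold was 0.91 against 0.03 over all genes. Without pseudogenes, a count added after the data were seen, 23 of 68 tested members rose and the median was 0.87. The rise covered 7 of 8 matched CCT genes, both mitochondrial chaperonin genes, 2 of 3 HSP110 genes and 4 of 9 tested HSP70 genes. It also covered 1 of 3 HSP90 genes, 6 of 25 DNAJC genes, 1 of 9 tested DNAJB genes and 2 of 5 tested pseudogenes. Of the 4 DNAJA genes, 0 were called. Without mouse m606 the count of called members fell from 26 to 4 (CCT6A, CCT8, HSP90AA1 and HSPE1), and without m4528 to 11. The share of all genes called in those fits is not given, so a general loss of calls cannot be told apart.

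HSPD1 and HSPE1, the mitochondrial folding chamber and its lid, rose together in the erythroid gate. HSPD1 was at 246.9, 228 and 273 CPM in erythroid-gated sums of m4528, m605 and m606 and at 38.4, 91.0 and 22.6 CPM in the stem-gated sums. The groups did not overlap, and the fold was 2.44 ± 0.43 (adjusted p = 0.0029, edgeR). HSPE1, whose shared element is printed above, was at 131, 505 and 467 CPM against 18.7, 95.3 and 144 CPM. It was higher within every mouse, but the erythroid-gated sum of m4528 lay below the stem-gated sum of m606, and the fold was 2.39 ± 0.28 (adjusted p = 0.00027). Of 6 mitochondrial chaperones listed together, 5 rose. The others were HSPA9, the mitochondrial HSP70 (1.42 ± 0.21), and DNAJC15 and DNAJC19 (1.33 ± 0.31 and 1.59 ± 0.42), J-domain proteins of the mitochondrial import motor. DNAJA3 was not called. The erythroid calls of DNAJC19 and DNAJC15 were lost in 7 and 5 of 13 alternatives. Those of HSPD1 and HSPA9 were lost in 2 each and that of HSPE1 in 0.

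In the cytosol, HSPH1, an HSP110 exchange factor, was at 235.4, 278 and 235.0 CPM in erythroid-gated sums against 31.5, 50.5 and 48.9 CPM in the stem-gated sums (2.36 ± 0.49, adjusted p = 0.0073). Its relative HSPA4 was at 306, 296 and 310 CPM against 64.0, 15.9 and 241 CPM (1.82 ± 0.57, adjusted p = 0.048). In the stem gate HSPA4 differed widely between mice, and its call was lost in 6 of 13 alternatives. HSP90AA1, the inducible cytosolic HSP90, was at 382, 502.5 and 574 CPM against 122, 185 and 252 CPM (1.46 ± 0.18, adjusted p = 0.00033). HSPA8 was at 575, 792 and 729.5 CPM against 412, 411.5 and 363 CPM (0.83 ± 0.16, adjusted p = 0.0042). HSP90AB1, the steady HSP90 form, was at 2047, 2634 and 3152 CPM against 1997, 2227 and 2723 CPM and was not called (0.17 ± 0.08).

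The CCT subunits sit side by side in the ring. The names matched leave out TCP1, which was listed with the co-chaperones. The folds of the 7 called subunits in the erythroid gate lay between 0.66 ± 0.15 (CCT7) and 1.31 ± 0.15 (CCT6A). CCT8 was at 1670, 971 and 1275 CPM in erythroid-gated sums against 655.5, 371 and 595.5 CPM (1.28 ± 0.14, adjusted p = 0.00014). CCT2, CCT3, CCT4 and CCT5 rose by 0.87 ± 0.21, 0.89 ± 0.20, 0.82 ± 0.17 and 0.83 ± 0.14. CCT6B, a second gene for the CCT6 position, was not called and was at 16.1, 27.6 and 0.80 CPM in the erythroid-gated sums. DNAJB9, a J-domain protein of the endoplasmic reticulum (ER), was the 1 member that fell, at 6.33, 23.0 and 43.0 CPM against 87.6, 217 and 242 CPM (-2.89 ± 0.54, adjusted p = 0.0041). Of 8 ER chaperones, DNAJB11 and DNAJC10 rose in the erythroid gate and HSPA5, the HSP70 of the ER, was not called (-0.49 ± 0.33). The calls of DNAJB11 and DNAJC10 were lost in 8 and 9 of 13 alternatives (adjusted p up to 0.208 and 0.316).

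The largest folds of the erythroid gate after HSPA1A belonged to rows with few counts. The pseudogene HSPD1-PS3, a processed copy of HSPD1, was at 0.95, 3.70 and 5.77 CPM against 0.40, 0 and 0 CPM (3.57 ± 0.98), and DNAJC19-PS at 1.90, 20.8 and 10.4 CPM against 0.40, 0 and 1.07 CPM (3.19 ± 0.90). Reads of such copies may stem from their parent genes, since they are near-identical, so both are uncertain. With stem-gated sums at or near 0 they passed the filter on low counts through the erythroid gate, and their fitted folds depend on the prior count. DNAJC17, a J-domain protein of the nucleus, was at 19.6, 11.1 and 6.07 CPM against 4.22, 0 and 1.07 CPM (2.78 ± 0.88, adjusted p = 0.0498, edgeR), a call lost in 8 of 12 alternatives. HSPA14, an HSP70 form that works at the ribosome, was at 262, 200.4 and 193 CPM against 59.0, 126 and 69.3 CPM (1.34 ± 0.37, adjusted p = 0.027). HSPA2, an HSP70 known from the testis, and DNAJC7 were called in no gate. HSPA2 was at 1.27, 14.1 and 5.17 CPM in the erythroid-gated sums against 22.2, 0 and 6.98 CPM, and DNAJC7 at 38.1, 68.0 and 24.3 CPM against 62.7, 1.44 and 55.3 CPM.

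**Figure D2:**
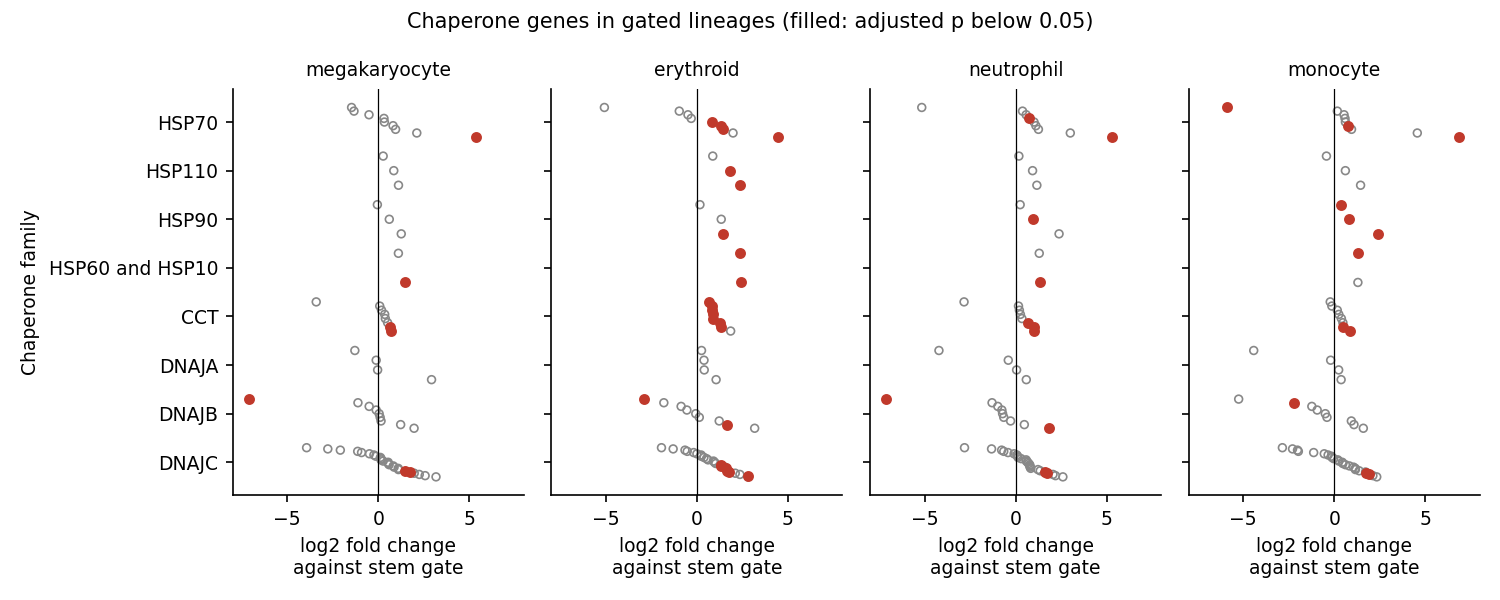
Log2 fold change of tested chaperone genes against the stem gate (horizontal axis) by family (vertical axis), 1 panel per lineage and 1 point per gene. Filled points have an adjusted p below 0.05 in edgeR's quasi-likelihood test. Pseudogenes, small heat shock proteins, HSPBP1, HSPB11 and HSPBAP1 are not drawn. The filled points of the erythroid panel spread over the CCT, HSP60 and HSP10, HSP110 and DNAJC rows, while the other panels have fewer filled points. Members called were 7, 12 and 12 against 26. Of these, HSPD1-PS3 and DNAJC19-PS (erythroid) and HSPB1 (neutrophil) have no point.

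In the myeloid gates fewer members passed the test. In neutrophil-gated cells 10 members rose and 2 fell, where 6.16% of all genes were higher and 4.24% lower, and the members' median fold was 0.58 against -0.01. In monocyte-gated cells 10 rose and 2 fell, where 6.88% and 4.71% of all genes did, and the median was 0.44 against 0.02. Without m606 these counts were 1 (CCT8) and 2 (CCT8 and HSPA1A), and without m4528 both were 2. The share of all genes called without these mice is not given either.

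The difference between lineages was not tested. All 3 HSP90 genes rose in monocyte-gated cells. HSP90B1, the HSP90 of the ER, was at 693, 617 and 632 CPM there against 78.4, 17.3 and 379 CPM in the stem-gated sums (2.41 ± 0.71, adjusted p = 0.0497, edgeR). HSP90AB1 was at 2169, 2564 and 3548 CPM against 1997, 2227 and 2723 CPM, a small rise seen in 3 of 3 mice (0.36 ± 0.08, adjusted p = 0.013) whose call was lost in 9 of 13 alternatives (adjusted p up to 0.435). In neutrophil-gated cells HSP90B1 was at 380, 992.5 and 809 CPM, and its fold of 2.39 ± 0.71 had an adjusted p of 0.056. DNAJB11, the ER partner of HSPA5, rose by 1.82 ± 0.49 in neutrophil-gated cells, at 144, 256 and 182 CPM against 52.9, 26.0 and 68.2 CPM (adjusted p = 0.035), a call lost in 7 of 13 alternatives. HSPA5 itself was called in neither gate, with stem-gated sums of 279, 1633 and 987.5 CPM and monocyte-gated sums of 856, 1003 and 1404 CPM. Without m605, whose stem-gated sum was the highest, HSPA5 was called in the megakaryocyte, neutrophil and monocyte gates (1.20 ± 0.20, 1.153 ± 0.24 and 1.25 ± 0.24, adjusted p = 0.0283, 0.0339 and 0.0227, edgeR). HSPD1, not called in these 3 gates with all mice, was then called as well (1.56 ± 0.32, 1.94 ± 0.37 and 2.05 ± 0.37, adjusted p = 0.0462, 0.0267 and 0.0197). The stem-gated sum of m605 held 14 cells. This mouse had no megakaryocyte-gated sum and bore on that gate only through the shared fit.

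Other risers of the myeloid gates were shared with the erythroid gate. HSP90AA1 rose by 0.94 ± 0.18 in neutrophil-gated and 0.82 ± 0.18 in monocyte-gated cells, at 251, 390 and 354 CPM and at 189.5, 347 and 343 CPM. HSPA8 rose by 0.77 ± 0.16 in monocyte-gated cells (539, 621 and 688 CPM), and HSPA9 by 0.75 ± 0.21 in neutrophil-gated cells (395, 263 and 223 CPM). Of the CCT subunits, CCT5, CCT6A and CCT8 rose in the neutrophil gate (0.69 ± 0.14, 1.01 ± 0.15 and 1.02 ± 0.14), and CCT5 and CCT8 in the monocyte gate (0.49 ± 0.14 and 0.85 ± 0.13). The calls of HSPA9 in the neutrophil gate and CCT5 in the monocyte gate were each lost in 9 of 13 alternatives (adjusted p up to 0.298 and 0.266). DNAJC2, which binds at the ribosome, was at 204, 342 and 256 CPM in neutrophil-gated sums against 96.1, 40.4 and 123 CPM (1.73 ± 0.38). DNAJC9 was at 232, 123 and 213 CPM in monocyte-gated sums against 64.5, 40.4 and 73.6 CPM (1.72 ± 0.39). Both were without overlap between the gates.

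DNAJC15, CCT8, HSPE1 and HSPA1A rose in all 4 comparisons. DNAJC15 was at 199, 503 and 462 CPM in monocyte-gated and 120, 525.9 and 442 CPM in neutrophil-gated sums against 90.5, 114 and 97.2 CPM in stem-gated sums (1.90 ± 0.31 and 1.61 ± 0.31, adjusted p = 0.0024 and 0.0075, edgeR). Its 2 values from the second table were again well above that of m4528. Of the other members, 4 rose in 3 comparisons, 4 in 2 and 15 in 1, while 56 rose in none, among them 10 that were too low to be tested. The 4 comparisons share stem-gated sums and are not independent.

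Few members fell. HSPB1, a small heat shock protein, had 0 counts in all 3 neutrophil-gated sums and 1.45, 1.44 and 12.4 CPM in the stem-gated sums. Its call (adjusted p = 0.033, edgeR) rested on 35 counts in the stem-gated sums and was lost in 6 of 11 alternatives. Against a floor of 3 counts over the 3 neutrophil-gated sums, HSPB1 was at least 19.4-fold lower. Without m606, also added after the data were seen, this bound was 6.70-fold and rested on 12 counts in the stem-gated sums. Only 1.14% of stem-gated cells exceeded 10 counts of HSPB1, so the bound rests on few cells. With 0 counts in the neutrophil gate, HSPB1 passed the filter on low counts through other gates. DNAJB2 was at 0.18, 0.75 and 0.67 CPM in neutrophil-gated sums against 19.8, 118 and 20.4 CPM (-7.11 ± 1.72, adjusted p = 0.023, edgeR). These neutrophil-gated values lie below the level of 3 counts (0.268, 1.13 and 1.01 CPM), so the size of the fold depends on the prior count. The call was lost in 5 of 12 alternatives, and 3.70% of stem-gated cells exceeded 10 counts. DNAJB4 was at 13.6, 16.3 and 30.7 CPM in monocyte-gated sums against 61.5, 88.1 and 164 CPM (-2.20 ± 0.35, adjusted p = 0.0023), with no overlap. HSPA12B, a distant HSP70 relative, was at 0.58, 0 and 0 CPM there against 23.5, 0 and 16.1 CPM and passed the test at an adjusted p of 0.048, with m605 at 0 in both gates, a call lost in 7 of 12 alternatives.

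In megakaryocyte-gated cells 6 members rose and 1 fell, where 2.6% of all genes were higher and 1.76% lower, and the members' median fold was 0.36 against -0.05. Beside HSPA1A these were DNAJC9, a J-domain protein that handles histones (1.75 ± 0.37), DNAJC15 (1.49 ± 0.29), HSPE1 (1.46 ± 0.28), CCT8 (0.68 ± 0.13) and CCT6A (0.64 ± 0.14), with adjusted p between 0.0045 and 0.030 for the 6 risers (edgeR). DNAJC9 was at 294, 303 and 279.9 CPM in m4533, m4528 and m606 against 132, 64.5 and 73.6 CPM. CCT8 was at 1041, 1141 and 942 CPM against 730, 655.5 and 595.5 CPM. Neither gene overlapped between the gates. DNAJB2 fell, at 0, 0.19 and 1.95 CPM against 25.9, 19.8 and 20.4 CPM, a call lost in 6 of 12 alternatives. No member was called without m606, and 2 were called without m4528 or without m4533, again with no share of all genes given.

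**Figure D3:**
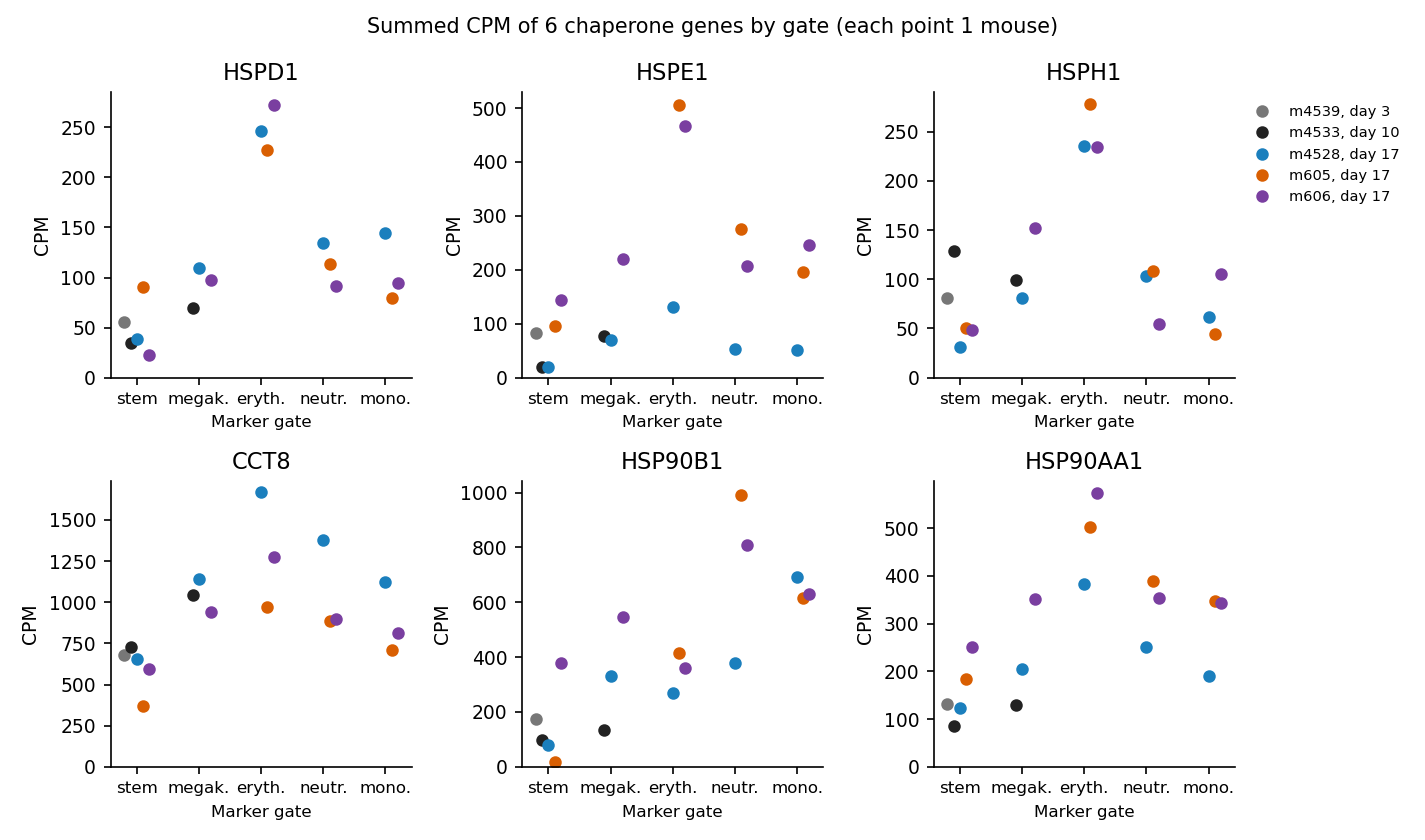
Summed CPM (vertical axes, from 0) of HSPD1, HSPE1, HSPH1, CCT8, HSP90B1 and HSP90AA1 by marker gate (horizontal axis), 1 point per mouse. Erythroid-gated points of HSPD1 and HSPH1 lie above all stem-gated points (227.9 CPM or more for HSPD1 and 235.0 CPM or more for HSPH1), while HSPE1 differs between mice within a gate.

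Other genes of the pathway also differed between these gates. For the counts below, 8.94%, 6.16%, 6.88% and 2.6% of all tested genes were higher in the erythroid, neutrophil, monocyte and megakaryocyte gates. In the same order, 8.68%, 4.24%, 4.71% and 1.76% were lower. Of 30 co-chaperones and regulators listed (HSF1 and HSF2, BAG, prefoldin and HSP90 cochaperones), 13 rose and 1 fell in the erythroid gate, 9 and 1 in the neutrophil gate, 5 and 1 in the monocyte gate and 4 and 1 in the megakaryocyte gate. STIP1, which links HSP70 to HSP90, rose by 1.42 ± 0.29, 1.34 ± 0.29 and 1.02 ± 0.29 in the first 3 of these (adjusted p = 0.0061, 0.014 and 0.040, edgeR). HSF1 itself was not called in any, with folds of -0.97 ± 0.55 to 0.41 ± 0.54. Of 21 genes of the ER stress response, 11 rose in the neutrophil and 11 in the monocyte gate, 5 in the erythroid and 6 in the megakaryocyte gate, while 1, 1, 2 and 0 fell. CALR, an ER chaperone of glycoproteins, rose by 2.88 ± 0.29 in neutrophil-gated cells (adjusted p = 0.00021). Cell cycle genes moved as well, with 20 of 20 higher in the erythroid, neutrophil and monocyte gates and 17 of 20 in the megakaryocyte gate (median folds of 2.79 to 3.44). Immediate early genes moved the other way, with 16, 12, 9 and 6 of 18 lower in the erythroid, neutrophil, monocyte and megakaryocyte gates. Stem-gated cells were also shallower, with a median of 110805 counts against 158297 to 284902, and the part of depth, cell cycle or immediate early genes in the chaperone folds was not tested.

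Whether co-chaperones follow HSPA1A was asked by comparing holders with the other cells of the same mouse. In mice m4528, m605 and m606 the holders numbered 33, 63 and 73, and the others 255, 80 and 116. Of the 71 other members tested, 0 were called by edgeR's quasi-likelihood test, and 0% of the 14309 genes of any kind were called. At an unadjusted p under 0.05 stood 14 of the 71, where 12.3% of all genes did, and DESeq2 called 7, where it called 7.07% of all genes. HSPA8, the steady HSP70, was at 572, 733 and 718 CPM in holders against 465.8, 627 and 555 CPM in the others, higher in 3 of 3 mice though the 2 ranges overlapped (0.41 ± 0.10, adjusted p = 0.27, edgeR). HSPD1 was at 175, 152 and 169 CPM against 124, 124 and 126 CPM (0.52 ± 0.15, adjusted p = 0.32, edgeR), with no overlap between holders and others. DNAJB1, the J-domain partner that rises with HSPA1A in a heat shock, was at 122, 187 and 181.5 CPM against 103, 215.5 and 202 CPM, higher in m4528 and lower in the other 2 mice (0.07 ± 0.18). HSPH1 was at 132.5, 157 and 154 CPM against 74.6, 136 and 138 CPM (0.51 ± 0.23). HSP90B1 was at 591, 473 and 582 CPM against 303, 322 and 441 CPM (0.75 ± 0.18, adjusted p = 0.28, edgeR). The folds of the members had a median of 0.23 against 0.03 over all genes.

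The 2 sides of this comparison were not the same cells. The 8 genes with the lowest p of any kind were EMB, LYZ2, CTSG, HP and ELANE, higher in holders, and GM19590, PDZK1IP1 and LY6D, lower in holders, each with an adjusted p of 0.13 (edgeR). ELANE and CTSG are neutrophil granule genes and markers of the neutrophil gate, and PDZK1IP1 is a marker of the stem gate. Holders were also deeper, with median counts of 387148, 193276 and 159083 against 141043, 83140 and 101618 in the others. Of the lists, 18 of 18 immediate early genes were fitted lower in holders (median -0.46, 9 at an unadjusted p under 0.05) and 20 of 20 cell cycle genes higher (median 0.29, 7 under 0.05). Of 21 ER stress genes 10 were under 0.05, and none of these lists held a called gene. The part of depth, cell cycle and lineage in the members' folds was not tested in this comparison of whole mice. Splitting each mouse by gate left 9 pairs of holders and others with at least 5 cells on each side, a minimum chosen after the data were seen.

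Within mouse and gate the direction differed between members. HSPA1A itself had a median of 505 CPM in holders and 10.1 CPM in the other cells of the 9 pairs. HSPA8 was higher in holders in 8 of 9 pairs (median 624 against 587 CPM), HSPD1 in 8 (125.5 against 87.7 CPM), HSPA9 in 8 (310 against 174.5 CPM) and STIP1 in 8 (169 against 137 CPM). DNAJB1 was higher in 7 (169 against 88.8 CPM), HSPH1 in 6 (112 against 120 CPM), HSP90AA1 in 5 and HSP90AB1 in 4. BAG3, an HSF1-driven partner of HSP70, was at 12.9 against 9.69 CPM and higher in 5. HSPA5, HSP90B1 and DNAJA1 were higher in 5, 3 and 3 pairs, so HSP90B1, higher in holders in 3 of 3 mice, was lower in 6 of 9 pairs. No member other than HSPA1A, which chose the cells, was called in the fits with these pairs as blocks. The pairs of a mouse share its plates and are no replicates of each other. The share of all genes higher in as many pairs is not given, so these counts have no background.

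**Figure D4:**
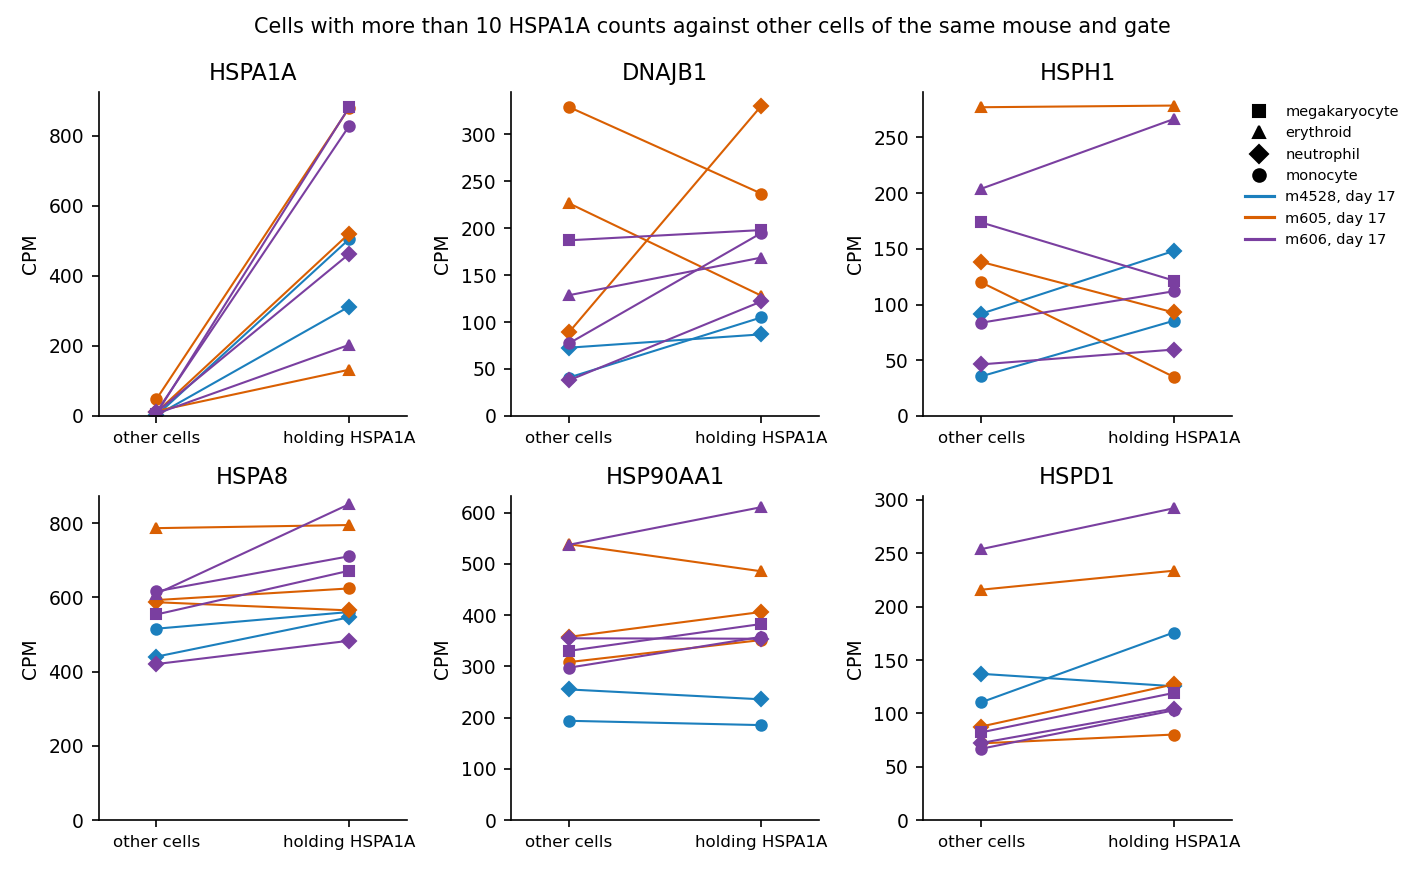
Summed CPM (vertical axes, from 0) of 6 genes in cells with more than 10 HSPA1A counts and in the other cells (horizontal axis), with 1 line per mouse and gate of day 17; HSPA1A is shown because it chose the cells. Of the 9 lines of each gene, 8 rise for HSPA8, 8 for HSPD1, 7 for DNAJB1, 6 for HSPH1 and 5 for HSP90AA1. Lines of a mouse are not independent, and differences between genes in these counts were not tested.

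Across days no member was called. The slope over day in all kept cells, with the count table as a term, called 0 of 79 members and 0% of 16740 genes in edgeR's quasi-likelihood test, with 10 members at an unadjusted p under 0.05, where 8.8% of all genes were, and 2 called by DESeq2 (HSPA1A higher, HSPB11 lower), which called 2.77% of all genes. In stem-gated cells it called 0 of 67 members and 0% of 12881 genes, with 0 members at an unadjusted p under 0.05 against 1.8% of all genes, and 0 by DESeq2 against 0.0233%. HSPA1A over all cells was at 0.03 and 0.07 CPM at days 3 and 10 and at 90.7, 292 and 270 CPM in the 3 day 17 mice, where the fitted slope rests on 1 and 3 counts in the earlier mice and is not given. HSPA5 was at 354, 444, 629, 934 and 1097 CPM in m4539, m4533, m4528, m605 and m606. Each day 17 mouse was above both earlier mice. Since the second table holds day 17 only, the table term takes up m605 and m606. The fitted slopes therefore rest on m4539, m4533 and m4528, with 1 mouse per day. The slope of HSPA5 was 0.96 ± 0.27 log2 per 14 days (adjusted p = 0.45, edgeR). HSPD1 was at 70.1 and 97.0 CPM and then 135.5, 142 and 147 CPM (1.08 ± 0.32, adjusted p = 0.46). Stem-gated cells made up 163 of 190 cells at day 3, 55 of 107 at day 10 and 76 of 288, 14 of 143 and 30 of 189 in the day 17 mice, so the mix of cells moves with day, and its part in these slopes was not tested. Of 20 cell cycle genes, 15 had an unadjusted p under 0.05 for the slope and 0 were called.

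Several members differed between mice without following day. HSP90AB1 was at 2102, 1347, 2108, 2597 and 3236 CPM in m4539, m4533, m4528, m605 and m606, so the day 10 mouse was the lowest. CCT5, a CCT subunit, was at 1231, 1683, 1655, 1320 and 1372 CPM, with the day 17 mice on both sides of the others. HSPE1 was at 97.5, 46.2 and 57.7 CPM in the first table and 347 and 300 CPM in the second, and DNAJC15 at 153, 136 and 135 CPM and 389 and 364 CPM. Within day 17 these 2 genes therefore differed between tables by more than between m605 and m606, and table, mouse and library preparation cannot be told apart. The mix of cells differed too, with 76 of 288 cells stem-gated in m4528, 14 of 143 in m605 and 30 of 189 in m606. Its part was not tested. HSP90AA1 was at 149, 124, 224, 393 and 425 CPM, and HSPA8 at 421, 408, 489, 694 and 635 CPM.

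**Figure D5:**
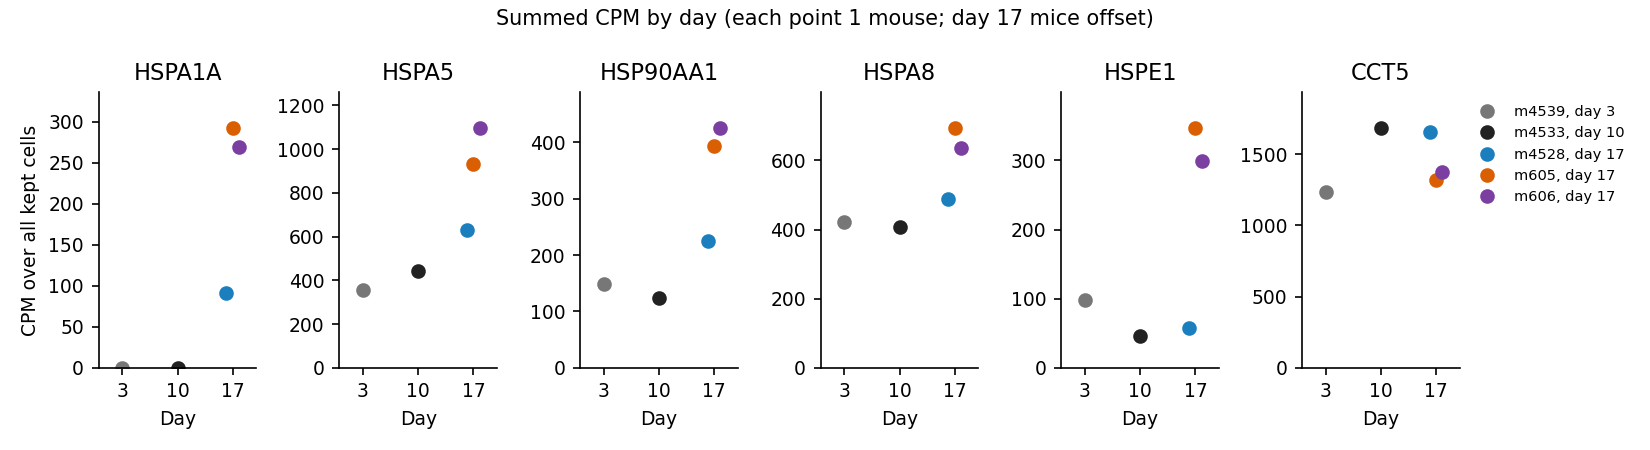
Summed CPM over all kept cells (vertical axes, from 0) by day (horizontal axis) for HSPA1A, HSPA5, HSP90AA1, HSPA8, HSPE1 and CCT5, 1 point per mouse with the day 17 mice offset. HSPA1A is at 0.07 CPM or below in the day 3 and day 10 mice, and the day 17 mice of HSPE1 split by count table (57.7 CPM against 300 and 347 CPM).

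At the level of single cells the members ranged from nearly constant to nearly absent. HSP90AB1, with the highest mean CPM of the members over the 5 mice (2278), exceeded 10 counts in 96.7% of cells, and in 93.5% of stem-gated cells. HSPA8 did so in 93.4% of cells and CCT5 in 87.8%. HSPA5 and HSPE1 divided the cells, at 39.3% and 25.9% of stem-gated cells against 94% and 94% of erythroid-gated cells, where depth also differed. HSPB1 exceeded 10 counts in 1.29% of cells. DNAJB5 had the lowest mean CPM (0.12), and the 10 pseudogenes were at or below 15.1 CPM in every mouse. CPM was not scaled to transcript length, so these levels of different genes are counts of reads and do not compare their transcripts. Exons of 29 members overlap another gene in the annotation, among them CCT8 (with Usp16 on the other strand), HSPA1A (with Gm20481 on the other strand) and HSPA8 (with the small nucleolar RNA genes Snord14c to Snord14e). Use of strand in counting was not given in the sources used here.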

How the data were processed

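The deposited files hold raw counts per gene and cell barcode in 2 tables, made by the authors and not normalized. Lin- Tom+ cells were sorted into plates and libraries were read from the 3′ end, per the labels' protocols, and the build is GRCm38 per the submitters' processing notes. Aligner, counting tool and any use of molecular identifiers were not given in the sources used here. Each count was treated as a read, so intervals and floors cover counting error only. The tables list 9357 barcodes. Those with at least 500 genes and 10000 counts were kept (585 and 425 in the 2 tables), holding 96.8% to 99.7% of the counts of each plate. No doublet caller was run.

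The genes, lists and gates were chosen with earlier results of these data known. Counts were summed per mouse and gate (at least 10 cells) and tested with edgeR 4.0.16 in R 4.3.3 (quasi-likelihood test, TMM, filterByExpr, Benjamini-Hochberg over all genes tested, threshold 0.05), with mouse as a block for gates and for HSPA1A holders, and table as a term for slopes over day. The block comes from the design: both sides of each comparison are cells of the same animals. With 5 mice the slope has 2 residual degrees of freedom, and the second table holds day 17 only. The table term therefore takes up m605 and m606, and the slope rests on m4539, m4533 and m4528. The mixed plate entered no test outside an alternative. Nothing in the labels says how plates of a mouse were prepared, so p-values measure the spread between these mice as sampled. Fits were tested on simulated data. Alternatives were DESeq2 1.42.0, other filters, gates and minimum cell numbers, thinning to 10000 counts, no block, and leaving out each mouse. Named were 24 well-known members (HSPA1A, HSPA1B, HSPA2, HSPA4, HSPA5, HSPA8, HSPA9, the HSP90 genes, HSPH1, HSPD1, HSPE1, HSPB1, DNAJA1, DNAJB1, DNAJC7 and CCT2 to CCT8), in each comparison up to 8 called members with the largest fold in each direction, for HSPA1A holders also the 8 genes with the lowest p, and the members with the highest and lowest level. Sequences were matched by symbol to RefSeq promoter windows of GRCm38.p6 (61 of 83 members), and positions to the gene annotation of GRCm38 (83 of 83). Protein sequences were not used here.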

Additional observations from a re-analysis of the deposited data

Results flagged for a closer look

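For the 24 members always named, the CPM of each gene was compared over the 9 plates of day 17, and a plate was singled out where its gap to the nearest other plate was more than 0.493 of the whole range (Dixon's 95% value for 9). This happened 6 times in 24 genes. Chance gives it in about 1 of 20 groups only where the values are independent and share 1 normal spread. The 9 plates come from 3 mice and 2 count tables and the genes share plates, so that rate may not hold here. Of the 6 cases, 4 were in plate 1 of mouse m605, the plate with 48 kept cells. There CCT3 was at 316 CPM (next plate 567), CCT4 at 452 CPM (867) and CCT8 at 454 CPM (967), all lower than elsewhere, and HSPA1B at 66.5 CPM was higher than elsewhere (14.6). HSPB1 was at 10.3 CPM in plate 2 of m605 (next 4.17). DNAJC7, a co-chaperone that takes part with both HSP70 and HSP90, was at 79.0 CPM in plate 8 of mouse m4528 (next 44.5).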

How the results depend on the processing

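With each mouse left out in turn, members called ranged from 0 to 9 (megakaryocyte gate, 7 in the main analysis), 4 to 26 (erythroid, 26), 1 to 13 (neutrophil, 12) and 2 to 14 (monocyte, 12), and the day 17 share of HSPA1A holders from 25.0% to 41.3%; the cause was not tested beyond the smaller number of mice. DESeq2 called 13, 19 and 20 members in the megakaryocyte, neutrophil and monocyte gates. It called 2 for the slope over day in all cells and 7 for HSPA1A holders, where it called 2.77% and 7.07% of all genes. Adding the mixed plate as a block of its own gave 12, 23 and 23 in the same 3 gates. Thinning each cell to 10000 counts, which left fewer genes tested, gave 4 in the megakaryocyte gate, 16 in the erythroid gate, 1 for the slope over day (HSPA1A) and 3 for holders, and the slope without the table term gave 1 (HSPA1A, adjusted p = 0.044, edgeR). Without the replicate block the gates gave 5, 21, 12 and 11 and holders 0, so no count moved by over 1.5 times. The share of all genes called is not given for the 4 gates in these alternatives, nor for slopes and holders outside DESeq2. A change in the members can therefore not be told apart there from a change in calls over all genes. Reversed signs occurred only in the holder comparison, in members that were not called. At 1 or more HSPA1A counts the folds were -0.17 (DNAJB1), -0.0493 (HSP90AB1) and 0.0808 (DNAJA1), and DNAJA1 was at 0.0155 above 100 counts and 0.135 after thinning. With mouse and gate as the replicate block HSP90AB1 was at -0.0263 and HSP90B1 at -0.16, and with at least 5 cells per side, chosen after the data were seen, HSP90AB1 was at -0.0103, HSP90B1 at -0.21, HSPA5 at -0.13 and DNAJC15 at -0.11. With each mouse left out in turn, DNAJB1 ranged from -0.132 to 0.152, HSP90AB1 from -0.00651 to 0.085 and DNAJA1 from -0.116 to 0.00252, with the reversed value of each from leaving out m4528. No member called in a gate comparison reversed there, nor did HSPA1A, HSPA5, HSPB11 or HSPD1 in the slope over day in all cells. Leaving out m605 or m606 could hardly move these slopes, since the table term takes up both mice. The difference in the share of holders between day 17 and earlier mice was 60.5 percentage points at 1 or more counts, 11.9 above 100 and 20 with the gene filter alone, and its exact permutation p was 0.1 or 0.2 in these. The basophil comparison had too few cells; with 5 cells per sum in 2 mice, 5 of 74 members rose and 1 fell, where 2.57% and 3.3% of all genes did. The shallow stem-gated sums of m605 (14 cells, 692505 counts) and m606 limit every fold of the second table.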
